A study of Mus musculus with 18 samples.

Results

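Feedback regulators of cytokine signalling were followed across mouse intestinal epithelial cells and intestinal tumours with and without STAT3: the suppressors of cytokine signalling Socs1, Socs2, Socs3 and Cish, the kinases Pim1, Pim2 and Pim3, and the tyrosine phosphatases Ptpn2, Ptpn6 and Ptpn11. They are a list of 10 named genes out of 19938 genes measured, each read from its brightest probe set over the 18 arrays, and all 10 were among the 17316 genes tested. The list is made by gene name.

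The study asked whether Stat3 is needed for intestinal tumours to progress in APCmin mice, which carry a mutation in Apc that activates Wnt signalling. Each of 6 groups had 3 samples, with 1 Affymetrix array per sample. The groups are Stat3-/- intestinal epithelial cells (replicates 4 to 6) and Stat3fl/fl intestinal epithelial cells (replicates 1 to 3), Stat3-/- male tumours (replicates 10 to 12) and Stat3fl/fl male tumours (replicates 7 to 9), and Stat3-/- female tumours (replicates 16 to 18) and Stat3fl/fl female tumours (replicates 13 to 15). Per the series text, the deleted mice are Villin-cre Stat3flox/flox, so that Cre is expressed from the Villin promoter in the intestinal epithelium, and the tumours come from Stat3deltaIEC APCmin/+ and Stat3flox/flox APCmin/+ mice. The deletion therefore spares the stroma and immune cells that whole tumours also hold. The tumours of both genotypes carry APCmin, while no Apc genotype, sex or age is given for the epithelial cells and no age for the tumours. One label field describes every sample, epithelial cells included, as an azoxymethane and dextran sulfate tumour, whereas the series text describes APCmin tumours that arise mainly in the small intestine. The text below calls the Stat3-/- samples Stat3-deleted and the Stat3fl/fl samples control. Whether replicates are separate animals is not stated in the labels, and p-values then speak only of the spread among samples, part of which may be technical.

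STAT3 is a transcription factor that is phosphorylated by Janus kinases after cytokines such as IL-6 and IL-22 bind their receptors, and in the gut it is known for driving epithelial repair and antimicrobial genes. The feedback genes switch such signals off or prolong them. SOCS proteins bind phosphorylated receptors or Janus kinases through an SH2 domain, block them and mark them for degradation, the phosphatases remove the phosphates or relay the signal onwards, and PIM kinases are growth and survival kinases whose genes STAT factors switch on.

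STAT dimers bind the letters TTCNNNGAA, in which N is any base and which reads as the same pattern on the other strand. Of 32851 RefSeq promoter windows of the GRCm38.p6 build, each with 250 bases before and 50 after a transcript start, 8.30% held these letters at least once and 0.457% held them 2 or more times. Among the feedback genes 9 such windows were read for 8 genes, and 2 of these, Socs3 and Cish, had a match. The windows of Socs1, Pim1, Pim2, Pim3, Ptpn6 and Ptpn11 held none. No window was read for Socs2 or Ptpn2, so whether theirs hold the letters was not tested. The Socs3 and Cish sequences are shown because these windows carry the letters that STAT factors are known to read. The Socs3 stretch is the 250 bases upstream of the transcript start used for its window, chr11:117969367-117969616 on the minus strand. It holds a match at position -154 from that start. The annotated span of Socs3 reaches 117970336, so this start is not its outermost one and the stretch lies inside that span. The Cish stretch, chr9:107296654-107296683 on the plus strand, runs across the start and holds matches at positions 1 and 12. Both are written 5′ to 3′, and the capitals mark the matches.
Socs3: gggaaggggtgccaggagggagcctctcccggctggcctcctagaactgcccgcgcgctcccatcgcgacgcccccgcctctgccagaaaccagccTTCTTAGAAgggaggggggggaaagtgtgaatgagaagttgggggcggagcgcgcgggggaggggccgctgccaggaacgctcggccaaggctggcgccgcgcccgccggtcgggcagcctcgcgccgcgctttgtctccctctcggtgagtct
Cish: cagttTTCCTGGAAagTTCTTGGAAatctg
A match describes the letters only, and no binding was measured here.

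Values are log2 expression as deposited, and a difference is Stat3-deleted minus control, or tumour minus epithelial cells, unless said otherwise. A gene was called where limma's adjusted p, by the Benjamini-Hochberg method over all 17316 tested genes, was under 0.05. Stat3 itself was lower in every deleted array. In epithelial cells it stood at 7.93, 7.95 and 7.73 in the Stat3-deleted arrays, against 9.83, 9.74 and 9.91 in the control arrays. In tumours it ranged over 7.74 to 8.46 in the 6 Stat3-deleted arrays and over 10.03 to 10.35 in the 6 control arrays. The difference was -1.96 ± 0.15 (SE) in epithelial cells (limma adjusted p = 1.23e-05) and -1.98 ± 0.11 in tumours of both sexes (limma adjusted p = 4.12e-08). Where on the transcript its probes lie relative to the floxed exons is unknown here. The 10 epithelial marker genes had a mean of 11.12 to 11.44 in the Stat3-deleted epithelial arrays and 11.34 to 11.38 in the control epithelial arrays, and 10.66 to 11.49 in the tumours. The mean of these markers was thus high in every sample and did not set the epithelial cells apart from the tumours. Single markers did, in both directions. Against epithelial cells, Krt18 was at 1.82 ± 0.17 (limma adjusted p = 6.12e-07) and Vil1 at -1.34 ± 0.25 (adjusted p = 0.00031) in control tumours. In Stat3-deleted tumours Krt18 was at 1.68 ± 0.17 (adjusted p = 2.09e-06) and Vil1 at -0.75 ± 0.25 (adjusted p = 0.0153). Array medians lay between 5.88 and 6.07. Among the control tumours, replicate 9 (male) and replicate 15 (female) stood apart: Hoxd13, a gene of the hindgut, was at 8.25 and 9.10 there and at 4.82 to 5.59 in the other 10 tumours, and Gata4, a gene of the small intestine, was at 6.92 and 6.84 there. The deletion differences of Socs2, Socs3, Cish and Pim3 over both sexes, and some differences between tissues, are given with and without them.

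Deleting Stat3 called none of the feedback genes in any comparison. Of 21 other genes known to respond to STAT3, 2 fell in epithelial cells and 6 in tumours of both sexes. Those 21 were listed with earlier results of these arrays known, so their calls are no independent contrast. In epithelial cells 0 of 10 were called, at a background of 0.0231% of tested genes. In male tumours 0 of 10 were called at a background of 0.231%, in female tumours 0 of 10 at 0.104%, and in tumours of both sexes together 0 of 10 at 0.71%. With so few genes called anywhere, a count of 0 among 10 is near the background. At an unadjusted limma p under 0.05 the counts were 3 of 10 for epithelial cells, 1 for male tumours, 1 for female tumours and 2 for both sexes together, where 1178, 1302, 871 and 2081 of all tested genes passed. The median difference over the 10 genes was 0.13 in epithelial cells and 0.03 in tumours of both sexes, beside 0.00 and -0.04 over all tested genes. Their unadjusted 95% intervals in tumours of both sexes differed in width, from -0.18 to 0.22 for Ptpn11, the narrowest, to -0.14 to 0.89 for Socs2, the widest. How large a change could be missed thus varied by gene, and moderate changes could be missed where the interval was wide. The intervals of Socs3 (-0.90 to -0.21) and Pim3 (-0.83 to -0.11) lay below 0, though neither gene was called. With array weights, which let arrays that fit their group poorly count for less, 2 of the genes were called in epithelial cells and 2 in tumours of both sexes, as given below, in fits that called 1134 and 1414 of all tested genes.

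**Figure D1:**
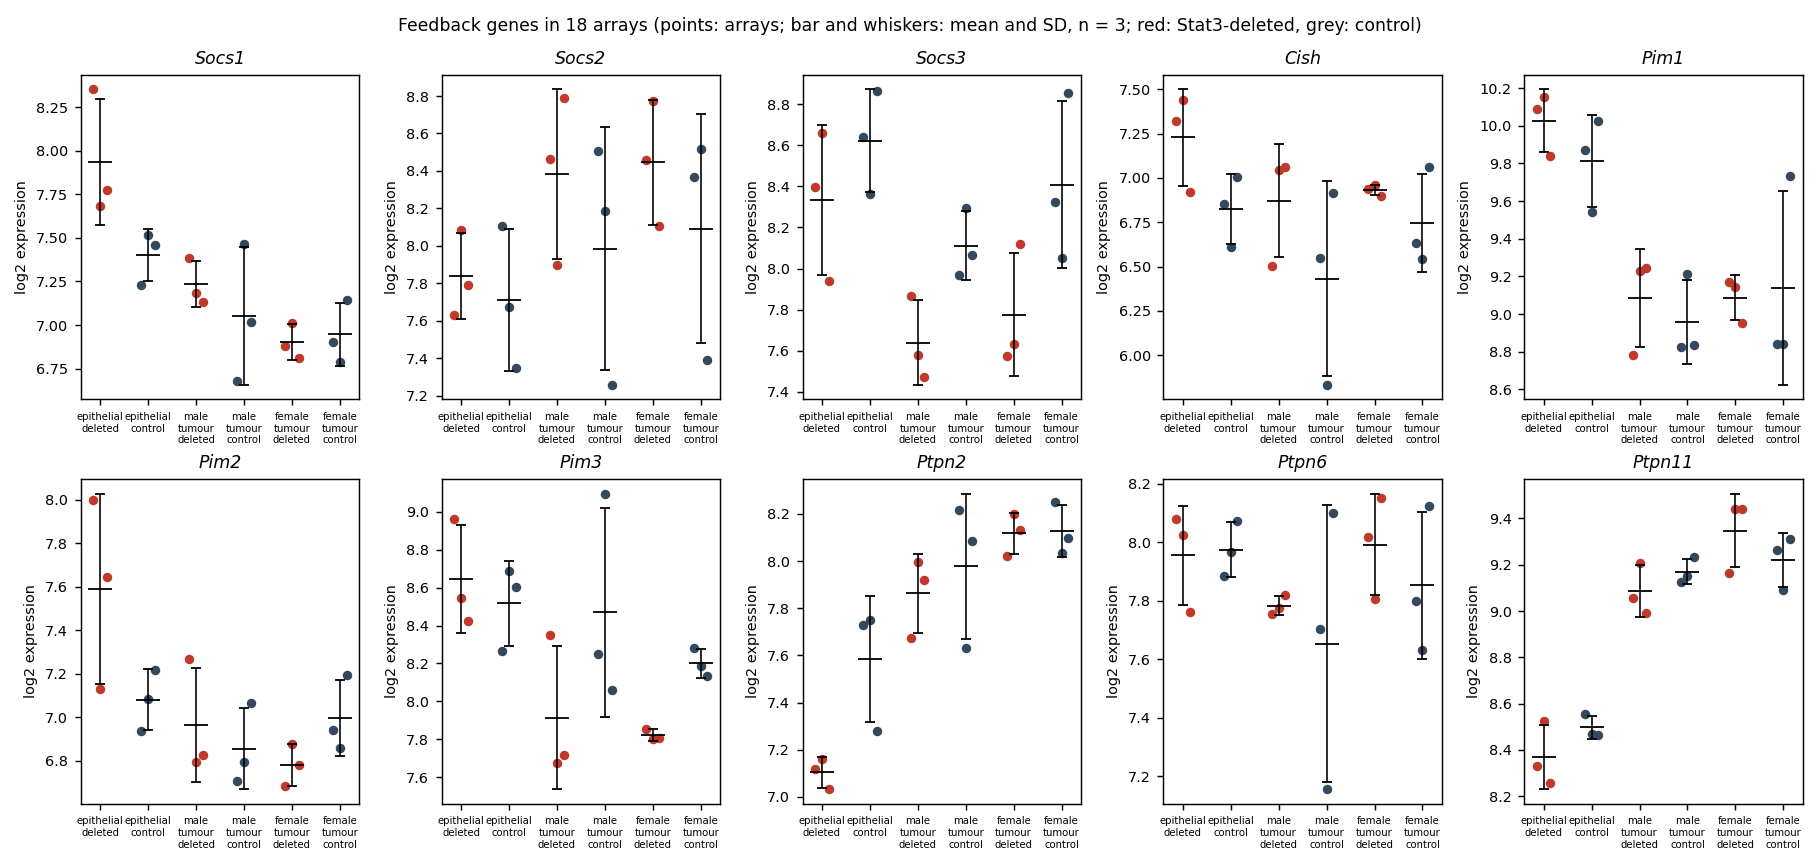
Log2 expression of the 10 feedback genes in each of the 18 arrays, by group, with a panel per gene and its own vertical scale. Points are arrays, and the bar and whiskers are the mean and SD of a group (n = 3). Within each tissue and sex the Stat3-deleted group stands left of its control. Ptpn11 and Ptpn2 stand higher, and Pim1 lower, in the tumours than in the epithelial cells, while most Stat3-deleted and control groups of the same tissue overlap.

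Socs3, the SOCS protein that binds the gp130 receptor chain and inhibits its Janus kinases, came nearest to a call in tumours. In male tumours it stood at 7.87, 7.58 and 7.47 in the Stat3-deleted arrays, against 7.97, 8.30 and 8.07 in the control arrays. Every Stat3-deleted male tumour was below every control one. In female tumours it stood at 7.58, 7.63 and 8.12 in the Stat3-deleted arrays, against 8.32, 8.05 and 8.85 in the control arrays. Here the groups overlapped, since replicate 18 of the Stat3-deleted tumours was above replicate 14 of the controls. Over both sexes the difference was -0.55 ± 0.16 (SE), with a 95% interval of -0.90 to -0.21, which is 0.682 times the control level (interval 0.537 to 0.866). It did not pass (limma adjusted p = 0.145). The separate differences were -0.47 ± 0.23 in male tumours (adjusted p = 0.677) and -0.63 ± 0.23 in female tumours (adjusted p = 0.757). Without replicates 9 and 15 the difference over both sexes was -0.45 (adjusted p = 0.32), and over the 27 alternatives it ran from -0.64 to -0.36. Array weights alone among the alternatives led to a call (-0.54, adjusted p = 0.0304). A dimmer probe set that the platform table also gives to Socs3 moved less, by -0.17 ± 0.12 over both sexes (adjusted p = 0.641), and by 0.00 in male tumours. Neutrophil markers stood beside these values: their mean over 10 genes was 5.17 to 5.70 in Stat3-deleted male tumours against 5.36 to 6.19 in control male tumours, and 5.14 to 6.29 in Stat3-deleted female tumours against 5.54 to 6.75 in control female tumours. The groups overlapped in both sexes, and only 1 of the 10, Ly6g, a surface protein of neutrophils, was called over both sexes (-2.99 ± 0.43, adjusted p = 0.00193). In male tumours Ly6g was at -3.73 ± 0.61 (adjusted p = 0.0128), so the lower male mean rested largely on this 1 gene. The part of neutrophils in the Socs3 difference was not tested. Which part of the Socs3 transcript each probe set reads is not given in the sources used here.

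In epithelial cells Socs3 stood at 8.40, 8.66 and 7.94 in the Stat3-deleted arrays, against 8.64, 8.36 and 8.86 in the control arrays. The groups overlapped, and the difference was -0.29 ± 0.23 (adjusted p = 0.795).

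Socs1, which blocks Janus kinases directly and is best known for restraining interferon-gamma signals, stood higher without Stat3 in epithelial cells, without passing the test. In epithelial cells it stood at 8.35, 7.68 and 7.77 in the Stat3-deleted arrays, against 7.23, 7.52 and 7.46 in the control arrays. The groups did not overlap, and replicate 4 was the highest array of all 18. The difference was 0.53 ± 0.20 (95% interval 0.11 to 0.96, adjusted p = 0.721), and it was 0.32 without replicate 4. In tumours Socs1 stood at 7.38, 7.18 and 7.13 in the Stat3-deleted male arrays, against 6.68, 7.46 and 7.02 in the control male arrays. In the female tumours it stood at 6.88, 7.01 and 6.81 in the Stat3-deleted arrays, against 6.90, 6.79 and 7.15 in the controls. The tumour groups overlapped in both sexes, and over both sexes the difference was 0.07 ± 0.14 (adjusted p = 0.93).

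Markers of T and NK cells also stood higher without Stat3 in the epithelial cells. All 16 tested genes of a list of 20 such markers were higher in the Stat3-deleted epithelial cells, with a median difference of 1.04 and none called. Their mean level was 8.54, 7.44 and 7.16 in the Stat3-deleted arrays, with replicate 4 the highest, against 6.62, 6.59 and 7.09 in the control arrays. Cd3e, a chain of the T cell receptor complex, was at 9.39, 8.04 and 7.93 in the Stat3-deleted arrays, against 7.19, 7.26 and 7.73 in the control arrays. This defining marker was thus well above the bottom of the scale in every epithelial array. The mean of 18 interferon-gamma response genes also stood higher there, at 8.95, 8.98 and 9.10 in the Stat3-deleted arrays against 8.74, 8.66 and 8.77 in the control arrays, with 0 of 18 called. The part of either list in the Socs1 and Pim2 values was not tested. In bulk RNA such as this, fewer or more cells of a type and less or more RNA per cell cannot be told apart.

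Socs2 and Cish, which respond mainly to STAT5 downstream of growth hormone and related cytokines, did not pass the test by genotype. Socs2 in male tumours stood at 8.46, 7.90 and 8.79 in the Stat3-deleted arrays, against 8.51, 8.19 and 7.26 in the controls. In female tumours it stood at 8.46, 8.78 and 8.11 in the Stat3-deleted arrays, against 8.37, 8.52 and 7.39 in the controls. The lowest array in each sex was the control tumour with high Hoxd13, replicate 9 or 15. The difference over both sexes was 0.38 ± 0.24 (adjusted p = 0.597) and became 0.02 without replicates 9 and 15 (adjusted p = 0.986). In epithelial cells Socs2 ranged over 7.63 to 8.09 in the Stat3-deleted arrays and over 7.35 to 8.10 in the control arrays.

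Cish stood at 6.51, 7.05 and 7.06 in the Stat3-deleted male tumours, against 6.55, 5.83 and 6.91 in the control male tumours. Control replicate 8 was the lowest array of all 18, and the other values overlapped. In female tumours Cish stood at 6.94, 6.96 and 6.90 in the Stat3-deleted arrays, against 6.64, 6.54 and 7.06 in the controls. The difference over both sexes was 0.31 ± 0.17 (adjusted p = 0.507), 0.16 without replicate 8 and 0.51 without replicates 9 and 15 (adjusted p = 0.195). In epithelial cells it was 0.40 ± 0.24 (adjusted p = 0.734), from 6.92 to 7.44 in the Stat3-deleted arrays and 6.61 to 7.01 in the control arrays.

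**Figure D2:**
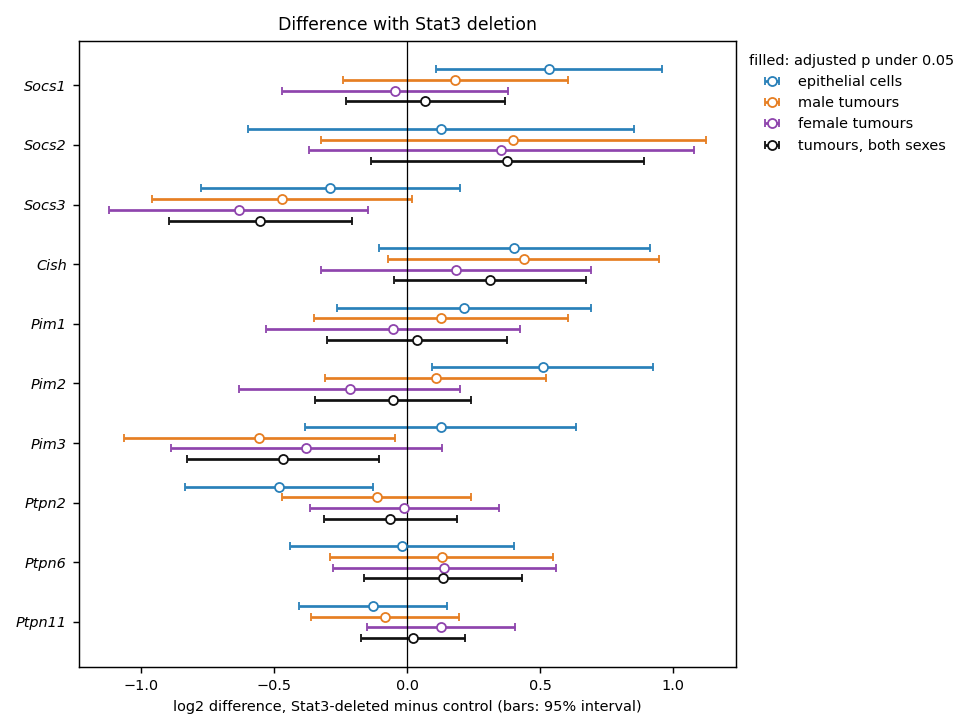
Log2 difference, Stat3-deleted minus control, of the 10 feedback genes in epithelial cells, male tumours, female tumours and tumours of both sexes. Bars are 95% intervals from limma. The differences lie between -0.63 and 0.53, and every point is open, which marks a gene not called.

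Among the PIM kinases, which share many substrates and need no activating phosphorylation by another kinase, Pim3 stood lower in Stat3-deleted tumours without passing the test. In male tumours Pim3 stood at 8.35, 7.68 and 7.72 in the Stat3-deleted arrays, against 8.25, 9.10 and 8.06 in the controls. Control replicate 8 was the highest array of all 18, and the groups overlapped. In female tumours Pim3 stood at 7.86, 7.80 and 7.81 in the Stat3-deleted arrays, against 8.28, 8.19 and 8.13 in the controls. The female groups were tight and did not overlap. The difference was -0.47 ± 0.17 over both sexes (95% interval -0.83 to -0.11, 0.723 times the control level, limma adjusted p = 0.255). It was -0.56 ± 0.24 in male tumours (adjusted p = 0.62) and -0.38 ± 0.24 in female tumours (adjusted p = 0.997). Without replicate 8 the difference over both sexes was -0.31 and the male one -0.24, and without replicates 9 and 15 the difference over both sexes was -0.59 (adjusted p = 0.182). Array weights led to a call of Pim3 over both sexes (-0.45, adjusted p = 0.0266). In epithelial cells the difference was 0.13 ± 0.24 (adjusted p = 0.927), from 8.42 to 8.96 in the Stat3-deleted arrays and 8.26 to 8.69 in the control arrays.

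Pim2 stood higher without Stat3 in epithelial cells, beside the T and NK cell markers given above. It stood at 8.0, 7.13 and 7.64 in the Stat3-deleted arrays, against 6.94, 7.08 and 7.22 in the controls. Replicate 4 was again the highest array, and replicate 5 lay within the control range. The difference was 0.51 ± 0.20 (limma adjusted p = 0.722), 0.31 without replicate 4, and was called with array weights (0.55, adjusted p = 0.0181). In tumours of both sexes it was -0.05 ± 0.14 (adjusted p = 0.946), over 6.69 to 7.27 in the Stat3-deleted arrays and 6.71 to 7.19 in the control arrays.

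Pim1, the best studied STAT target of the family, stood at 10.09, 10.15 and 9.84 in the Stat3-deleted epithelial cells, against 9.87, 9.54 and 10.02 in the control epithelial cells. In male tumours it stood at 8.78, 9.23 and 9.24 in the Stat3-deleted arrays, against 8.82, 9.21 and 8.83 in the controls. In female tumours it stood at 9.17, 9.14 and 8.95 in the Stat3-deleted arrays, against 8.84, 8.84 and 9.73 in the controls. Each pair of groups overlapped, the female pair only through control replicate 15, the highest Pim1 array among tumours. The female difference was -0.05 ± 0.23 (limma adjusted p = 0.997). It ran from -0.20 to 0.25 with each array left out in turn. The difference was 0.21 ± 0.23 in epithelial cells (adjusted p = 0.847) and 0.04 ± 0.16 in tumours of both sexes, with a 95% interval of -0.30 to 0.38 (adjusted p = 0.97).

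Among the phosphatases Ptpn2, which dephosphorylates Janus kinases and STATs, was the one whose arrays did not overlap between genotypes, in epithelial cells. It stood at 7.12, 7.16 and 7.03 in the Stat3-deleted epithelial arrays, against 7.73, 7.75 and 7.28 in the control epithelial arrays. The groups did not overlap, with control replicate 3 closest to the Stat3-deleted arrays. The difference was -0.48 ± 0.17 (95% interval -0.84 to -0.13, limma adjusted p = 0.702), and array weights led to a call (-0.64, adjusted p = 0.00662). A second, dimmer Ptpn2 probe set differed by -0.06 ± 0.24 in the same comparison (adjusted p = 0.968), so the probe sets disagreed. In tumours of both sexes the difference was -0.06 ± 0.12 (adjusted p = 0.921), with 7.68 to 8.20 in the Stat3-deleted arrays and 7.63 to 8.25 in the control arrays.

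Ptpn6, or SHP-1, a phosphatase best known from blood cells, showed the smallest difference in epithelial cells, at -0.02 ± 0.20 (adjusted p = 0.988). It stood at 8.08, 8.02 and 7.76 in the Stat3-deleted arrays there, against 7.88, 7.97 and 8.07 in the controls. In tumours of both sexes the difference was 0.14 ± 0.14 (adjusted p = 0.806), with control replicate 8 the lowest array of all 18 at 7.16. Ptpn11, or SHP2, which docks on the gp130 chain and relays signals to the RAS pathway, differed by -0.13 ± 0.13 in epithelial cells (adjusted p = 0.843). In tumours of both sexes it differed by 0.02 ± 0.09 (adjusted p = 0.97), with the narrowest 95% interval of the 10 genes, -0.18 to 0.22.

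The deletion effect was also compared between settings. Between tumours and epithelial cells 0 of 10 differences were called, at a background of 0.0116%, and 1 of 10 had an unadjusted p under 0.05. That gene was Pim2, whose deletion effect in tumours minus that in epithelial cells was -0.56 ± 0.24 (limma adjusted p = 0.51). Between female and male tumours 0 of 10 differences were called, at a background of 0%, and 0 of 10 had an unadjusted p under 0.05. The deletion effects of Socs1, Pim2, Socs3 and Pim3 were thus not shown to differ between tissues or sexes.

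Other genes that STAT3 is known to switch on in the gut were read from the same arrays. In epithelial cells 0 of 21 were called higher and 2 lower, Tifa, an adaptor of innate immune signalling, at -2.23 ± 0.19 (limma adjusted p = 1.99e-05), and Reg3b, an antimicrobial lectin, at -4.91 ± 0.71 (adjusted p = 0.017). In tumours of both sexes 0 of 21 were called higher and 6 lower, with a list median of -0.63, where 0.289% of all tested genes were called higher and 0.422% lower. They included Lrg1, a secreted acute-phase glycoprotein, at -3.13 ± 0.18 (adjusted p = 4.12e-08), Tifa at -1.77 ± 0.13 (adjusted p = 2.5e-06), Reg3b at -5.84 ± 0.50 (adjusted p = 8.31e-06) and Reg3g, its close relative, at -4.16 ± 0.45 (adjusted p = 0.000102). The 10 feedback genes thus differed by at most 0.55 in either direction over both sexes, where Lrg1 fell by 3.13. The list was chosen with earlier results of these arrays known, so its direction is no independent evidence.

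**Figure D3:**
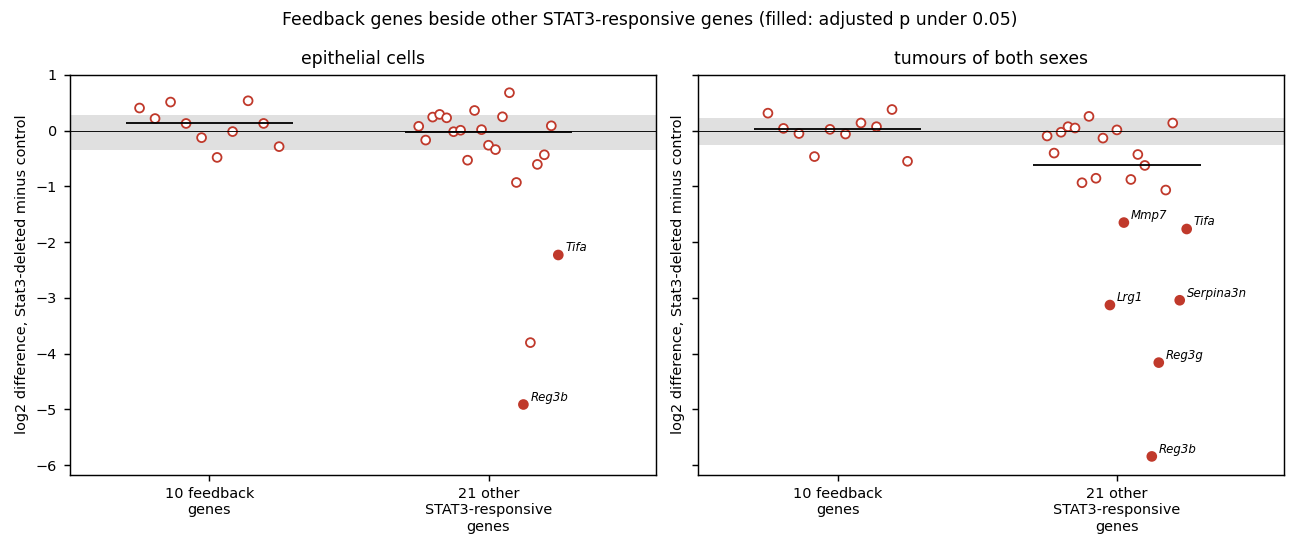
Log2 difference, Stat3-deleted minus control, of the 10 feedback genes and of the 21 STAT3-responsive gut genes, in epithelial cells and in tumours of both sexes. Each point is a gene and a filled point was called. The black line is the list median and the grey band runs from the 10th to the 90th percentile of all tested genes. The called points of the STAT3-responsive list lie between -5.84 and -1.65, below every feedback gene, none of which was called. That comparison leaves out the genes of the list that were not called. The list was chosen with earlier results of these arrays known, so this is no independent contrast.

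Other regulators of the pathway were also read. Of 29 tested genes for other SOCS proteins, PIAS proteins, phosphatases and ubiquitin ligase parts, 0 were called in epithelial cells and 0 in tumours of both sexes, with list medians of -0.08 and -0.09. Usp18, a brake on type I interferon receptors, was at 1.33 ± 0.37 in tumours of both sexes without passing (adjusted p = 0.115). Socs6 was at -0.34 ± 0.12 (adjusted p = 0.249), and Ptpn1, a phosphatase of Janus kinases, at -0.36 ± 0.14 (adjusted p = 0.291). Of 25 tested receptors, Janus kinases and STATs, Stat3 fell and Stat2, a transcription factor of type I interferon signalling, rose over both sexes, at 0.90 ± 0.20 (adjusted p = 0.044). Of 18 tested interferon-gamma response genes, 5 were called higher in tumours of both sexes, where 0.289% of all tested genes were called higher, with a list median of 0.73, among them Ciita, the switch for MHC class II genes, at 1.02 ± 0.15 (adjusted p = 0.00193). The mean of the 18 was 9.35 to 10.02 in Stat3-deleted male tumours against 7.5 to 9.06 in control male tumours, where replicate 8 was lowest. In female tumours it was 9.53 to 9.76 in the Stat3-deleted arrays and 9.18 to 9.75 in the controls, so the arrays overlapped there and not in males. Socs1, itself an interferon-gamma response gene, was at 0.07 over both sexes. None of 11 cytokine ligands or 7 genes of the STAT5 and growth hormone response was called in either tissue.

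Between tumours and epithelial cells the feedback genes did differ, as did most genes on the arrays. In Stat3-deleted samples 7 of 10 were called, at a background of 66.5%, with 2 higher (background 30.3%) and 5 lower (background 36.2%). In control samples 3 of 10 were called, at a background of 65.7%, with 2 higher (background 30.4%) and 1 lower (background 35.3%). The first count is near the background and the second is below it. The median difference was -0.48 in Stat3-deleted samples and -0.20 in control samples, beside -0.07 and -0.08 over all tested genes. Ptpn11 and Ptpn2 rose and Pim1 fell in both genotypes, whereas Socs1, Socs3, Pim2 and Pim3 fell in the Stat3-deleted samples and did not pass in the controls. That difference between genotypes is the interaction tested above, in which no gene was called.

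Ptpn11 had the clearest step. It ranged over 8.99 to 9.44 in the 6 Stat3-deleted tumours, against 8.33, 8.52 and 8.26 in the Stat3-deleted epithelial cells. In controls it ranged over 9.09 to 9.31 in the 6 tumours, against 8.56, 8.47 and 8.46 in the epithelial cells. No tumour overlapped an epithelial array in either genotype. The level was 1.80 times as high in Stat3-deleted tumours as in Stat3-deleted epithelial cells (difference 0.85 ± 0.11, limma adjusted p = 2.86e-05) and 1.62 times as high in control tumours as in control epithelial cells (difference 0.70 ± 0.11, adjusted p = 9.93e-05).

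Ptpn2 ranged over 7.68 to 8.20 in Stat3-deleted tumours, above all 3 Stat3-deleted epithelial arrays, which were at 7.12, 7.16 and 7.03. The difference was 0.89 ± 0.14 (adjusted p = 0.000127, 1.85-fold). In controls Ptpn2 ranged over 7.63 to 8.25 in tumours and over 7.28 to 7.75 in epithelial cells, so the arrays overlapped, and the difference was 0.47 ± 0.14 (adjusted p = 0.0104). The control call was lost under quantile normalisation (0.20, adjusted p = 0.183), without replicate 3 (0.31, adjusted p = 0.0921), with the mean of the probe sets (0.38, adjusted p = 0.0586) and with the dimmer probe set alone (0.29, adjusted p = 0.223).

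Pim1 ranged over 8.78 to 9.24 in Stat3-deleted tumours, against 9.84 to 10.15 in Stat3-deleted epithelial cells, with no overlap. The difference was -0.94 ± 0.20 (adjusted p = 0.000702). In controls it ranged over 8.82 to 9.73 in tumours, against 9.54 to 10.02 in epithelial cells, where only tumour replicate 15 reached the epithelial range. The difference was -0.76 ± 0.20 (adjusted p = 0.00322). Pim2 fell by 0.72 on the log2 scale in Stat3-deleted tumours (SE 0.17, adjusted p = 0.00177), and its difference in controls was -0.15 ± 0.17 (adjusted p = 0.433). Pim3 fell by 0.78 in Stat3-deleted tumours (SE 0.21, adjusted p = 0.00407). Its difference in controls was -0.18 ± 0.21 (adjusted p = 0.446), and 1 of the 27 alternatives called it.

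Socs1 ranged over 6.81 to 7.38 in Stat3-deleted tumours, below all 3 Stat3-deleted epithelial arrays at 7.68 to 8.35. The difference was -0.87 ± 0.17 (adjusted p = 0.000541). In controls it was -0.40 ± 0.17 (adjusted p = 0.0504), over 6.68 to 7.46 in tumours and 7.23 to 7.52 in epithelial cells. That value lay at the threshold, and 9 of the 27 alternatives called it. Socs3 ranged over 7.47 to 8.12 in Stat3-deleted tumours and over 7.94 to 8.66 in Stat3-deleted epithelial cells, with a difference of -0.62 ± 0.20 (adjusted p = 0.0118) that did not pass without replicate 5 (-0.46, adjusted p = 0.0818). In controls its difference was -0.36 ± 0.20 (adjusted p = 0.12), and 3 of the 27 alternatives called it. The dimmer Socs3 probe set was called in both genotypes, at -0.62 ± 0.14 in Stat3-deleted samples (adjusted p = 0.00154) and -0.65 ± 0.14 in controls (adjusted p = 0.0012). The Socs3 probe sets were not tested against each other.

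The remaining genes did not pass between tissues. Socs2 was at 0.58 ± 0.30 in Stat3-deleted samples (adjusted p = 0.0948) and 0.33 ± 0.30 in controls (adjusted p = 0.336). Without replicates 9 and 15 both passed, at 0.58 (adjusted p = 0.0253) and 0.69 (adjusted p = 0.0201). In all, 3 of the 27 alternatives called the Stat3-deleted value and 1 the control value. The dimmer Socs2 probe set was at 0.03 in Stat3-deleted samples and -0.14 in controls. Cish was at -0.33 ± 0.21 in Stat3-deleted samples and -0.23 ± 0.21 in controls, and the Stat3-deleted value passed under quantile normalisation (-0.58, adjusted p = 0.0192). Ptpn6 was at -0.07 ± 0.17 in Stat3-deleted samples and -0.22 ± 0.17 in controls. The control value passed in 2 of the 27 alternatives, 1 of them without replicates 9 and 15 (-0.40, adjusted p = 0.0337).

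**Figure D4:**
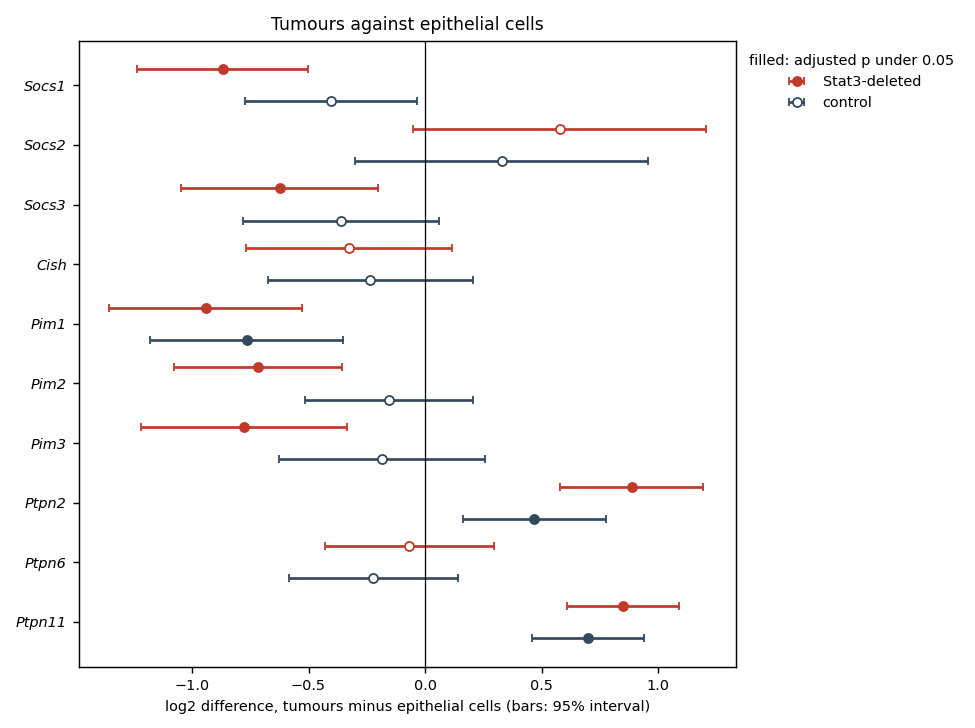
Log2 difference, tumours minus epithelial cells, of the 10 feedback genes in Stat3-deleted samples (upper point of each pair) and in control samples (lower point). Bars are 95% intervals from limma and filled points were called. Ptpn2 and Ptpn11 lie to the right of 0 and Pim1 to the left in both genotypes.

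Markers of other cells moved with tissue. The mean of 10 fibroblast markers was 8.74 to 10.29 in Stat3-deleted tumours against 6.52 to 6.81 in Stat3-deleted epithelial cells, and 8.71 to 9.46 in control tumours against 6.53 to 6.99 in control epithelial cells. In Stat3-deleted and in control samples 9 of 10 endothelial markers and 7 of 8 smooth muscle markers were called higher in tumours. Of 17 macrophage and dendritic cell markers, 11 in Stat3-deleted and 15 in control samples were called higher. Of all tested genes, 30.3% in Stat3-deleted and 30.4% in control samples were called higher. Of 16 tested T and NK cell markers, 14 in Stat3-deleted samples and 7 in control samples were called lower in tumours. The backgrounds called lower were 36.2% and 35.3%, so the control count is near its background. Of 19 tested immediate early genes of cell handling, 4 were higher and 10 lower in Stat3-deleted tumours. In control tumours 4 were higher and 8 lower. Both directions together, this is near the 66.5% and 65.7% of all tested genes called. By direction, they were lower more often and higher less often than all tested genes. Among the immediate early genes Zfp36, which destabilises cytokine messages, was at -1.22 ± 0.19 in Stat3-deleted samples (adjusted p = 8.05e-05) and -1.39 ± 0.19 in controls (adjusted p = 1.8e-05). Myc went the other way, at 1.63 ± 0.26 in Stat3-deleted samples (adjusted p = 0.000119) and 2.73 ± 0.26 in controls (adjusted p = 9.07e-07). The part of these cells and of handling in the tissue differences was not tested.

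**Figure D5:**
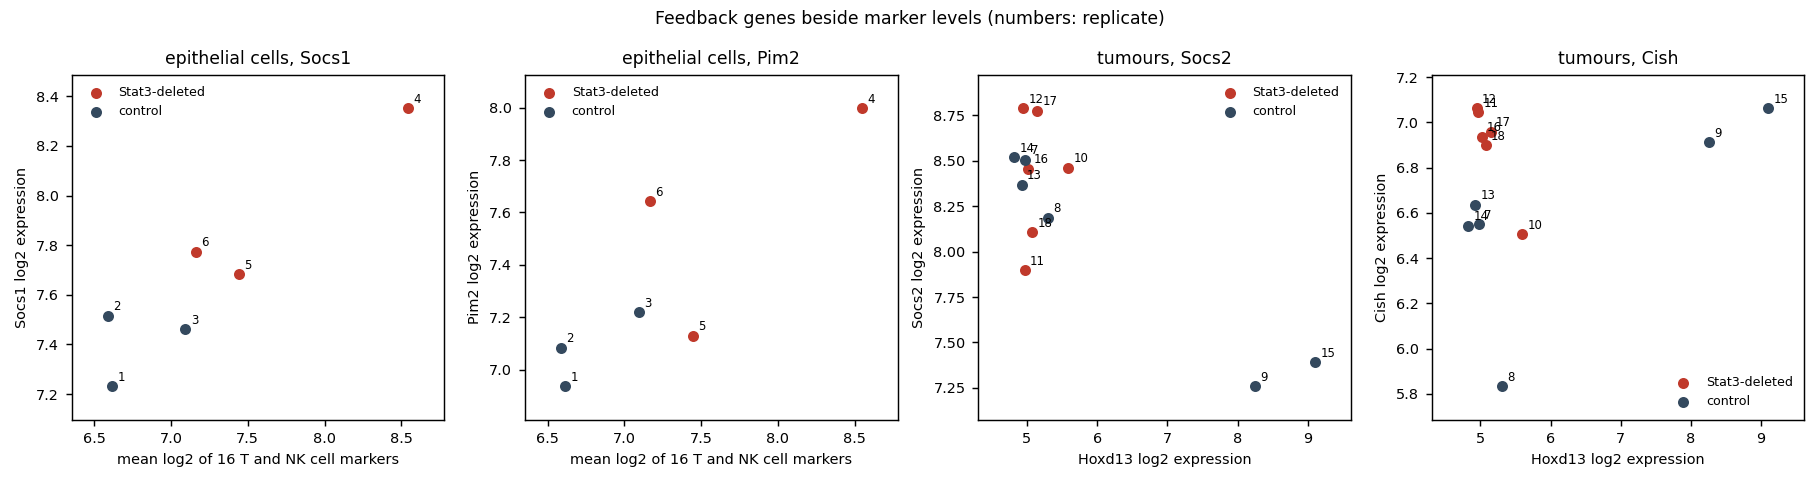
Log2 expression of feedback genes against marker levels, with 1 point per array, numbered by replicate and coloured by genotype: Socs1 and Pim2 against the mean of 16 T and NK cell markers in epithelial cells, and Socs2 and Cish against Hoxd13 in tumours. Replicate 4 of the Stat3-deleted epithelial cells is highest for Socs1, Pim2 and the T and NK cell markers, while replicate 5 is above replicate 6 for the markers and below it for both genes. Control tumours 9 and 15 are highest for Hoxd13 and, among tumours, lowest for Socs2, while their Cish values lie within the range of the other tumours. No test was made of these pairs.

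Of the same 29 other regulators, 12 rose and 4 fell in Stat3-deleted tumours and 13 rose and 3 fell in control tumours, with list medians of 0.27 and 0.36. Both directions together, these counts are no larger a share than the 66.5% and 65.7% of all tested genes called in those comparisons. By direction they differ from it. Of all tested genes 30.3% and 30.4% were called higher, and 36.2% and 35.3% lower. The regulators thus rose more often and fell less often than all tested genes, whose medians were -0.07 and -0.08. Socs6, which binds receptor tyrosine kinases such as KIT, was at 0.95 ± 0.15 in Stat3-deleted samples (adjusted p = 0.000108) and 1.22 ± 0.15 in controls (adjusted p = 9.47e-06). Cblb, a ubiquitin ligase that restrains T cell activation, was at 1.72 ± 0.22 in Stat3-deleted samples (adjusted p = 1.73e-05) and 1.53 ± 0.22 in controls (adjusted p = 2.99e-05). Il6st, the gp130 receptor chain that Socs3 and Ptpn11 bind, was at 2.51 ± 0.25 in Stat3-deleted samples (adjusted p = 2.01e-06) and 1.87 ± 0.25 in controls (adjusted p = 1.82e-05), so the receptor rose in tumours of both genotypes.

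Across the 6 groups most neighbours in the order of mean levels overlapped. How often neighbours separate among all tested genes was not counted, so the order is given as a description only. The ranges of neighbouring groups did not overlap for Socs1, with Stat3-deleted epithelial cells at 7.94 ± 0.36 (SD, n = 3) above control epithelial cells at 7.40 ± 0.15. They did not overlap for Ptpn2, with Stat3-deleted epithelial cells lowest at 7.10 ± 0.06 and control epithelial cells next at 7.59 ± 0.27. They did not overlap for Ptpn11, with all 4 tumour groups, down to Stat3-deleted male tumours at 9.09 ± 0.11, above control epithelial cells at 8.50 ± 0.05. All other neighbours overlapped. Socs3 was lowest in Stat3-deleted male tumours, at 7.64 ± 0.20, and highest in control epithelial cells, at 8.62 ± 0.25. Between the sexes no gene passed: 0 of 10 were called in male against female tumours, at a background of 0.0231%, 0 of 10 had an unadjusted p under 0.05, and the differences lay between -0.22 and 0.22.

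For each feedback gene the genes with the most similar profile over the 18 arrays were read off by Pearson correlation, as a description. These arrays share 2 tissues that differ in most genes, so high values are common. Socs3 was closest to S1pr2 (r = 0.856), Jun (0.843) and Kdm6b (0.842), and Pim1 to Irak2 (0.924), Gmip (0.916) and Hrh2 (0.914). Ptpn11 was closest to Btbd10 (0.980), Mprip (0.977) and Myo5a (0.975), and Ptpn2 to Larp7 (0.973), Ttc37 (0.956) and Cbwd1 (0.949). Socs2 was closest to Ppp2r3a (0.908), Ggact (0.852) and Des (0.851), and Cish to Ikbke (0.880), Prkd2 (0.846) and 2410004B18Rik (0.845). Ptpn6 was closest to Sec14l1 (0.884), B2m (0.805) and Prkd2 (0.804), and Pim3 to Scand1 (0.943), Ino80b (0.934) and Ager (0.929). Socs1 was closest to Gm6588 (0.951), C230062I16Rik (0.951) and L3mbtl4 (0.948), and Pim2 to Gm867 (0.922), 2810006K23Rik (0.903) and Trerf1 (0.902).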

How the data were processed

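RNA from 18 samples was labelled with a whole-transcript kit and hybridised to Affymetrix arrays, per the labels' protocols. The deposited values are log2 expression, processed by the authors with RMA per the submitters' processing notes. RMA corrects background, normalises by quantiles and summarises probes. Version and array library were not given in the sources used here. Of 35556 probe sets, 21789 had 1 gene symbol in the platform table, 1621 had several and 12146 were not named; 21698 matched a RefSeq gene identifier. The brightest of a gene's probe sets was kept (999 genes had several), which left 19938 genes, of which 17316 exceeded the array's 25th percentile in at least 3 arrays.

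limma 3.58.1 in R 4.3.3 fitted a mean for each of 6 groups to all 18 arrays, with an intensity trend and no covariate. Tests were two-sided, adjusted by Benjamini-Hochberg over all tested genes in each of 9 comparisons, with a threshold of 0.05. The fit was tested on simulated data. Errors are SE for differences and SD for levels, and the number of arrays limits the precision. The 27 alternatives covered normalisation, centring, filters, samples, array weights, the variance trend, probe set averaging and leaving out replicates; reading the other probe set was added after seeing the data. Feedback genes, Stat3, up to 4 called genes per list and comparison and the 3 genes most like each feedback gene were named by rule; Usp18, Ptpn1, Socs6 in the deletion comparison, Cd3e, Hoxd13 and Gata4 were picked from the lists after their values were seen. The members and lists were chosen with earlier results of these data known.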

Additional observations from a re-analysis of the deposited data

How the results depend on the processing

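Across 27 alternatives no called difference of the 10 genes changed sign. Leaving out each array in turn kept 0 of 10 genes called in every comparison by genotype or sex, in both interactions too, while the count for tumours against epithelial cells ran from 6 to 7 in Stat3-deleted samples and from 2 to 5 in control samples. Array weights gave 2 called genes in epithelial cells, 2 in tumours of both sexes and 2 in the difference between tissues (Pim2 at -0.64 and Ptpn2 at 0.52), with 1134, 1414 and 1038 of all tested genes called in place of 4, 123 and 2. The weights ran from 0.163 for replicate 8 to 4.87 for replicate 6, so that in Stat3-deleted epithelial cells 1 array outweighed the others. In control samples the count was 5 under quantile normalisation, with array weights, without replicate 15 and without replicates 9 and 15, in place of 3. Without replicates 9 and 15 202 genes were called in tumours of both sexes, and without replicate 18 265. Fitting only the compared groups gave no separate value for the difference between tissues, which uses all 6 groups. No paired analysis was possible because replicate numbers 1 to 18 are unique. Values near the bottom of the log2 scale cannot be told from background, and 3 arrays per group limit what can be detected.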
